A study of Rattus norvegicus with 30 samples.

Results

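The comparison is between the oesophageal epithelium of 6 miR-31 knockout rats and of 5 unedited rats, all on a zinc-deficient (ZD) diet, together 11 of the 30 arrays of the series, with 1 array per rat. The arrays were chosen by their titles alone. The question it addresses is how transcript levels differ in zinc-deficient rats that lack miR-31. All rats were male Sprague-Dawley rats that entered their diet group at 4 weeks of age and were dosed with N-nitrosomethylbenzylamine (NMBA), a carcinogen that acts on the rodent oesophagus, at 2 mg/kg. Per the labels, 4 doses were given from week 5, and the tissue was taken 15 weeks after the first dose. The knockout rats carried miR-31-/-, a constitutive edit made with CRISPR/Cas9, and were raised and dosed in an experiment of their own. The unedited rats were the untreated controls of another experiment, one that also tested an oligonucleotide against miR-31. Zinc-sufficient (ZS) counterparts were 4 knockout and 5 unedited rats, pair-fed to the intake of zinc-deficient animals. The labels also name miR-31+/+ littermates of the knockout rats, which were not analysed here. Genotype and experiment therefore coincide and cannot be told apart in any difference below. The labels do not say how many edited lines the knockout rats came from.

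MicroRNAs are short RNAs that pair, mainly through bases 2 to 8 (the seed), with messenger RNAs and lower their stability or translation. Loss of a microRNA is therefore expected from its mechanism to leave its direct targets higher. miR-31 is abundant in keratinocytes and has been studied as a promoter of squamous cancers, and zinc deficiency in rats thickens and inflames the oesophageal epithelium and raises its sensitivity to NMBA. The mature sequences of the microRNAs that carry the name miR-31 are shown to identify what the edit was aimed at, with the seed in capitals, as given by RefSeq on the GRCr8 build.
rno-miR-31a-5p: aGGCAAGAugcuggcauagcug
rno-miR-31a-3p: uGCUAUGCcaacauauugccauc
rno-miR-31b: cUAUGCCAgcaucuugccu
The main strand, rno-miR-31a-5p, lies at chr5:108714906-108714927 on the minus strand and its partner, rno-miR-31a-3p, at chr5:108714869-108714891 on the same strand. rno-miR-31b is annotated on the opposite strand at chr5:108714909-108714927, inside the footprint of the main strand. The 3 seeds differ from each other. The labels name miR-31 alone and do not give the bases that the edit removed, so which of these sequences the knockout rats lack is not known here, and the arrays did not measure miR-31 itself, so the knockout was not checked here by the level of its own target.

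All values are log2 array values after joint quantile normalization of the 30 arrays, and differences are knockout minus unedited, given with their fitted standard error (SE). The words rose and fell are used where limma's p, adjusted by Benjamini-Hochberg over 14217 genes, was under 0.05. Array medians as deposited were 5.81 to 5.93 on the 10 knockout arrays and 5.37 to 5.45 on the 20 other arrays, without overlap, which is why the arrays were normalized again together. The labels state an RNA integrity number of at least 8 for every sample. Correlations between arrays were at least 0.985 within the ZD knockout group, at least 0.978 within the unedited ZD group, and 0.956 to 0.984 between the groups. The number of arrays, not a sequencing depth, limits the precision of these values.

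In the knockout rats 2847 genes rose (20%) and 2955 fell (20.8%), so 5802 of 14217 genes, or 40.8%, passed the test on the zinc-deficient diet. A difference of at least 2-fold was present in 321 of the genes that rose and 113 of those that fell. For 3220 genes (22.6%) no array of one group reached the range of the other, 1571 higher and 1649 lower in knockouts. The share of higher genes among those that passed was 49.1%, and it depended on the scaling. With the values as deposited 7315 genes rose and 810 fell, with a median difference of all genes of 0.26, and with median centring 1801 rose and 5883 fell, with a median of -0.17. Gene differences below are read against the median of all genes after joint normalization, -0.00, and a gene list is set beside the 40.8% that passed overall. Values of single genes as deposited or with median centring are given without subtracting the median of all genes in that setting.

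Wall muscle stood apart between the groups and is given first because it touches many of the results. The mean level of 19 smooth muscle genes was 8.72, 8.77, 9.37, 7.93, 7.93 and 8.19 in ZD knockouts and 7.06, 6.57, 6.90, 6.64 and 7.24 in unedited ZD rats, so the groups did not overlap. The mean level of 43 skeletal muscle genes was 6.59 to 8.66 in ZD knockouts and 4.91 to 8.11 in unedited ZD rats, with overlapping groups. On the zinc-sufficient diet the smooth muscle level was 9.08 to 9.97 in knockouts and 7.81 to 9.06 in unedited rats. In tissue samples of this kind, more cells of a type and more RNA per cell cannot be told apart. Keratins of the squamous epithelium were bright on all arrays, with Krt13, a keratin of the upper layers, at 14.02 ± 0.05 in ZD knockouts (SD, n = 6) and 14.03 ± 0.02 in unedited ZD rats (SD, n = 5). Acta1, the skeletal muscle actin, was at 10.14 to 12.78 in ZD knockouts and at 10.62, 10.09, 12.23, 8.88 and 5.75 in unedited ZD rats, so the samples labelled as epithelium also held muscle RNA. With smooth and skeletal muscle levels as covariates, 2158 genes (15.2%) passed instead of 5802, 1161 higher and 997 lower, and 1821 of them had passed in the same direction without the covariates, while 6 had passed in the opposite one. Since the smooth muscle level did not overlap between the genotypes on this diet, the fit with covariates also takes out any difference that runs parallel to it, and the part of muscle content in the other results was not tested.

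**Figure D1:**
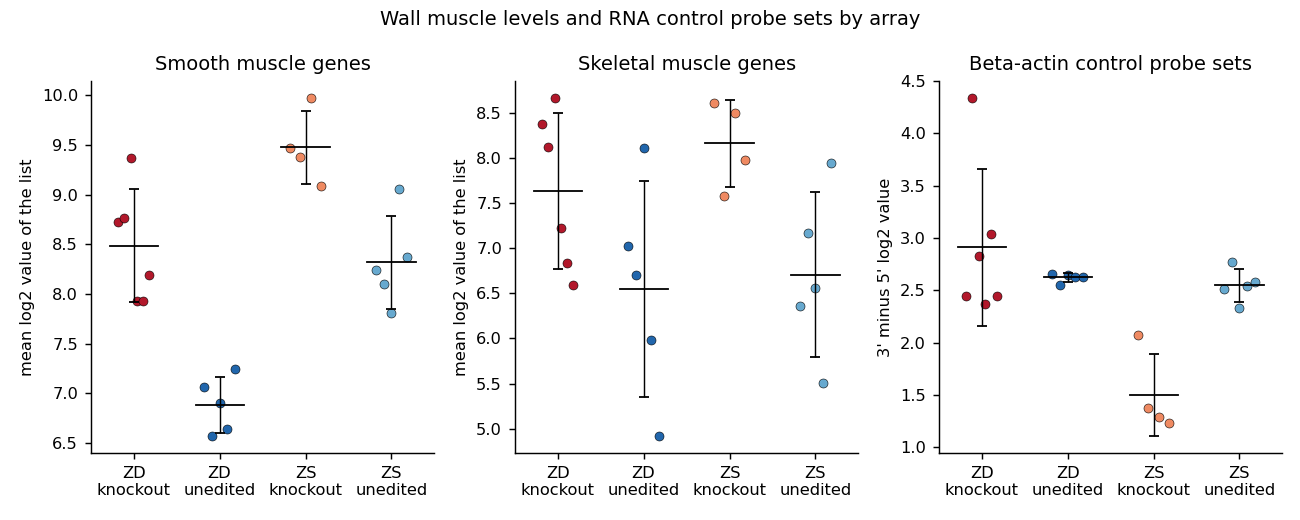
Mean log2 level of the smooth muscle genes (left) and the skeletal muscle genes (middle), and the 3′ minus 5′ difference of the beta-actin control probe sets in log2 units (right), with 1 point per array, the group mean as a line and the SD as bars (n = 6, 5, 4 and 5 arrays in the order of the axis). The smooth muscle level was 7.93 to 9.37 in ZD knockouts and 6.57 to 7.24 in unedited ZD rats, and 1 ZD knockout array had a beta-actin difference of 4.34.

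RNA control probe sets differed as well. The 3′ minus 5′ difference of the beta-actin controls, which grows when labelled RNA is shorter, was 2.37 to 4.34 in ZD knockouts and 2.55 to 2.65 in unedited ZD rats. Knockout array 35 gave the 4.34, and its Gapdh difference of 1.29 was also the highest, against 0.34 to 0.56 on the other ZD knockout arrays and 0.14 to 0.36 on the unedited ZD arrays. With the beta-actin difference as a covariate, an alternative chosen after seeing the data, 5400 genes passed on the zinc-deficient diet.

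Published targets of miR-31 were the first gene group examined. Of 46 listed, 39 were measured, and 12 rose, 10 fell and 17 did not pass, which is 56.4% against 40.8% of all genes. Their median difference was 0.11, beside -0.00 for all genes. Above 0 lay 23 of the 39, and 7065 of all 14217 genes. Stk40, a kinase-like protein reported to restrain NF-kB signalling, held rank 7 of all 14217 genes by p. It was at 8.14, 8.22 and 8.33 (lowest, median and highest) in ZD knockouts and at 7.26, 7.03, 7.23, 7.20 and 7.17 in unedited ZD rats. Every knockout array lay above every unedited one, by 1.05 on average (SE 0.07, limma adjusted p = 4.04e-11), or 2.08-fold. The difference was 1.05 with the muscle covariates and 0.86 on the zinc-sufficient diet, where it also passed.

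Bap1, a nuclear deubiquitinase and tumour suppressor, followed at rank 20. Its values were 8.89, 8.99 and 9.11 (lowest, median and highest) in ZD knockouts and 8.27, 8.18, 8.35, 8.36 and 8.38 in unedited ZD rats. The groups did not overlap and differed by 0.69 (SE 0.06, limma adjusted p = 8.87e-10), and by 0.32 on the zinc-sufficient diet. Il34, a ligand of the macrophage growth factor receptor, was at 6.41, 6.70 and 6.80 (lowest, median and highest) in ZD knockouts and at 5.67, 5.52, 5.56, 5.70 and 5.96 in unedited ZD rats, a rise of 0.97 (SE 0.15, limma adjusted p = 1.34e-05) without overlap. Jazf1, a zinc finger protein of chromatin complexes, rose by 0.68 (SE 0.10, limma adjusted p = 8.08e-06) on its brighter probe set, while the other probe set differed by -0.19 and did not pass.

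Egln3, the oxygen-sensing prolyl hydroxylase PHD3 and a target of miR-31, gave a less even picture. It was at 8.83, 9.40 and 9.54 (lowest, median and highest) in ZD knockouts and at 8.73, 8.99, 7.86, 7.91 and 8.91 in unedited ZD rats. Unedited arrays 12 and 15 lay within the knockout range, and the difference of 0.83 passed (SE 0.22, limma adjusted p = 0.00388). On the zinc-sufficient diet the difference was 0.04, and the difference between the diets, 0.79, did not pass (limma adjusted p = 0.131).

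Other targets of the list rose, among them Tns1, a focal adhesion protein, by 1.40, Kank1, an adaptor of the cell cortex, by 0.75, Lats2, a kinase of the Hippo pathway, by 0.36, and Ppp6c, a phosphatase subunit, by 0.34. Tns1 differed by 0.17 and Kank1 by 0.43 with the muscle covariates, where neither passed, and Lats2 and Ppp6c lost their call under median centring (0.10 and 0.12) and with the muscle covariates. Targets that fell included Sele, the endothelial adhesion molecule E-selectin, by 0.99, and Rasa1, a brake on Ras, by 0.60. A second Rasa1 probe set differed by 0.10 and did not pass. Abcb9 (-0.67), Itga5 (-0.50), Cdkn1b (-0.40) and Wasf3 (-0.37) fell too, each with a smaller adjusted p than Ppp6c, Egln3 or Lats2. In the fit with muscle covariates Rasa1 differed by -0.35 and did not pass, and 6 targets rose and 4 fell.

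**Figure D2:**
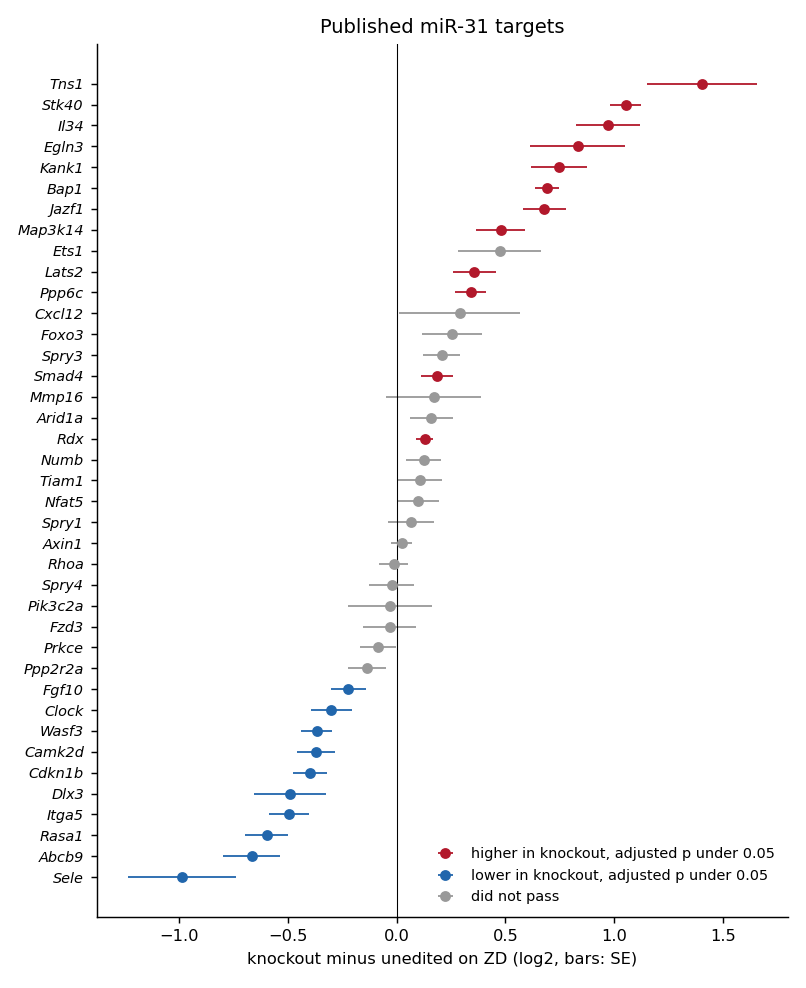
Difference in log2 value between ZD knockouts (n = 6) and unedited ZD rats (n = 5) for the 39 measured published miR-31 targets, with the SE of the fitted difference as bars. Stk40 and Bap1 have small errors at 1.05 and 0.69, and 10 of the targets lie significantly below 0.

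Genes next to the edited locus were chosen by their position alone, as the nearest 4 measured on each side in the RefSeq order. Their calls stand beside 40.8% of all genes that passed. On one side Klhl9, an adaptor of a ubiquitin ligase, was higher by 0.43, Ifnb1, the beta interferon, by 0.38 and Hacd4, an enzyme of fatty acid elongation, by 0.29, and all passed, while Focad, a focal adhesion protein, differed by -0.14 (limma adjusted p = 0.195). On the other side all 4 fell: Cdkn2a and Cdkn2b, the inhibitors of cyclin-dependent kinases, by 0.95 and 0.72, Mtap, an enzyme of the methionine salvage pathway, by 0.61, and Dmrta1, a transcription factor, by 0.35.
Cdkn2a was at 3.12, 3.24 and 3.32 (lowest, median and highest) in ZD knockouts and at 3.84, 5.75, 3.79, 3.58 and 3.93 in unedited ZD rats. The groups did not overlap, but unedited array 12 was far above the rest, and the difference was -0.55 without it. Cdkn2b was at 4.65, 5.01 and 5.15 (lowest, median and highest) in ZD knockouts and at 5.45, 6.22, 5.38, 5.78 and 5.55 in unedited ZD rats, again without overlap, and fell by 0.69 on the zinc-sufficient diet as well. The Mtap call was lost without unedited array 12 or 14, with the values as deposited (-0.35) and with the mean of its probe sets (-0.22). Klhl9 and Ifnb1 lost their call under median centring (0.15 and 0.11). Ifnb1 and Dmrta1 were dim in both groups, with means of 3.50 and 3.32 in ZD knockouts and 3.12 and 3.67 in unedited ZD rats. Cdkn2a was as dim in ZD knockouts, with a mean of 3.23, and was dim on the unedited ZD arrays other than array 12. In the fit with muscle covariates Mtap (-0.12), Cdkn2a (-0.77), Klhl9 (0.25) and Hacd4 (0.16) did not pass, while Ifnb1 (0.46), Cdkn2b (-0.57) and Dmrta1 (-0.37) did.

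Of 36 measured NF-kB targets and inflammation genes 16 fell, 3 rose and 17 did not pass (52.8%), with a median of -0.20. Ptgs2, the inducible cyclooxygenase, had the largest change among them. It was at 2.77, 3.18 and 3.98 (lowest, median and highest) in ZD knockouts and at 7.05, 9.19, 7.50, 8.41 and 3.19 in unedited ZD rats. Unedited array 15 lay inside the knockout range and the other unedited arrays far above it. The difference was -3.75 (SE 0.66, limma adjusted p = 7.46e-05), 13.5-fold, and -2.47 with both muscle covariates, where it passed, though it did not with the smooth muscle level alone.

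Il1b, the cytokine interleukin-1 beta, fell by 0.85, Cxcl2, a neutrophil chemokine, by 1.26, Ccl2, a monocyte chemokine, by 1.44, and Mmp9, a matrix protease, fell by 1.43. Mmp9 rested on unedited arrays 11 and 12 at 6.01 and 6.75, beside 3.10 to 3.21 on the other unedited arrays and 2.85 to 3.38 in knockouts, and its difference was -0.85 without array 12. The call was lost for Il1b without unedited array 11 and for Ccl2 without unedited array 11, 12 or 13 or knockout array 36. Tnf, the tumour necrosis factor, fell by 0.37, but differed by 0.04 with the values as deposited, where the median of all genes was 0.26. The genes of the list that rose included Nfkb2 and Rela, which encode subunits of NF-kB. Nfkb2 rose by 0.56 (SE 0.09, limma adjusted p = 4.52e-05) and Rela by 0.31 (SE 0.06, limma adjusted p = 0.000263), both without overlap between the groups.
With the muscle covariates 3 genes of this list rose and 2 fell, with a median of -0.03. None of Il1b, Ccl2, Cxcl2 and Mmp9 passed there.

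S100a8 and S100a9, the subunits of calprotectin made by neutrophils and stressed keratinocytes, count in the inflammation list and in that of neutrophils, and were lower but variable. S100a9 was at 5.72, 7.26 and 10.46 (lowest, median and highest) in ZD knockouts and at 12.17, 11.20, 10.71, 10.56 and 7.71 in unedited ZD rats. The groups overlapped through unedited array 15, and the fall of 2.77 passed narrowly (SE 1.07, limma adjusted p = 0.0404). S100a8 fell by 2.38 (SE 0.94, limma adjusted p = 0.0443) and differed by 0.44 with both muscle covariates. Leaving out 1 array ended the call of S100a8 in 8 of 11 fits (unedited arrays 11 to 14, knockout arrays 35, 36, 38 and 39) and of S100a9 in 7 of 11 (the same without knockout array 36). Of 20 neutrophil and mast cell genes measured, 1 rose and 4 fell (25%), with a median of 0.01.

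Of 27 macrophage and antigen presentation genes 4 rose and 2 fell (22.2%, median 0.02), and of 19 T and B cell genes 3 rose and 3 fell (31.6%, median 0.05). Cd163, a scavenger receptor of tissue macrophages, rose by 1.15, Laptm5, a lysosomal protein of blood cells, by 0.67, and RT1-Da, a class II chain, by 0.68. The 2 that fell were Lyz2 (-1.01) and RT1-DMa (-0.38). Laptm5 had a second probe set at -0.04 and lost its call with the mean of the probe sets, and RT1-Da lost its call under median centring (0.36). RT1-Bb, another class II chain, was 2.55 higher on its brighter probe set and 4.69 lower on the other, both past the threshold, so its direction is not settled here. Mzb1, a chaperone of antibody-secreting cells, fell by 0.81 (SE 0.08, limma adjusted p = 5.85e-08) without overlap. Cd247, a chain of the T cell receptor complex, rose by 0.72, while its dimmer probe set differed by 0.26 and did not pass. Of the T cell genes, Cd5 (-0.74) and Cd8b (-0.36) fell without overlap, and neither passed with the muscle covariates (-0.63 and -0.22). Cd8a, the partner chain of Cd8b, went the other way and rose by 0.75, and Cd4 rose by 0.32. No T and B cell gene rose past the threshold with the muscle covariates. Once muscle levels were covariates, no macrophage and antigen presentation gene passed, Cd163 at 0.66, Laptm5 at 0.45 and RT1-Da at 0.51 among them, nor did Cd247 (0.78), while Mzb1 did (-0.66). On the zinc-sufficient diet, where 49.8% of all genes passed, 22 of the 27 macrophage genes rose, with a median of 1.18. For 15 of the 27 the zinc-deficient difference was lower by the test of the difference, which 9.35% of all genes passed in either direction. ZS knockout array 32 stood above the other ZS knockout arrays for RT1-Da (12.44 against 10.63 to 11.62), Laptm5 (10.29 against 8.45 to 9.16) and Cd163 (7.44 against 5.81 to 6.30). The part of that array in these counts was not tested.

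Genes of the hypoxia response and glycolysis fell more often than they rose, 12 against 5 of 36 measured (47.2%, median -0.20). Bnip3, a mitophagy receptor induced by low oxygen, was at 7.39, 7.95 and 8.26 (lowest, median and highest) in ZD knockouts and at 9.47, 9.86, 8.79, 9.87 and 10.04 in unedited ZD rats. It fell by 1.73 without overlap (SE 0.22, limma adjusted p = 1.18e-06), by 1.87 with the muscle covariates, and differed by -0.23 on the zinc-sufficient diet. Hif1a, the oxygen-regulated transcription factor subunit, was at 10.71, 10.87 and 11.08 (lowest, median and highest) in ZD knockouts and at 11.65, 11.90, 11.52, 11.83 and 11.31 in unedited ZD rats. It fell by 0.76 without overlap (SE 0.12, limma adjusted p = 1.45e-05), and the difference between the diets passed too (-0.76, limma adjusted p = 0.00789).

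Further members that fell were Adm, the vasodilator peptide adrenomedullin, by 1.34, Hk2, the inducible hexokinase, by 1.08, Slc16a3, a lactate exporter, by 0.98, Slc2a1, the glucose transporter GLUT1, by 0.72, and Vegfa, the vascular growth factor, by 0.53. Vegfa differed by -0.26 and did not pass with the values as deposited. Slc2a3, the glucose transporter GLUT3, went the other way at 4.85, 5.06 and 5.41 (lowest, median and highest) in ZD knockouts against 3.55, 3.56, 3.60, 3.77 and 3.70 in unedited ZD rats. It rose by 1.47 without overlap (SE 0.12, limma adjusted p = 1.89e-09) and by 1.75 on the zinc-sufficient diet; a dimmer probe set differed by -0.02. On the zinc-sufficient diet 14 of the 36 hypoxia genes rose and 1 fell, a diet on which 49.8% of all genes passed. For 14 of the 36 the zinc-deficient difference was lower by the test of the difference, which 9.35% of all genes passed in either direction. With the muscle covariates 2 rose and 5 fell on the zinc-deficient diet, and Bnip3, Hif1a, Adm and Slc16a3 were among those that fell.

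**Figure D3:**
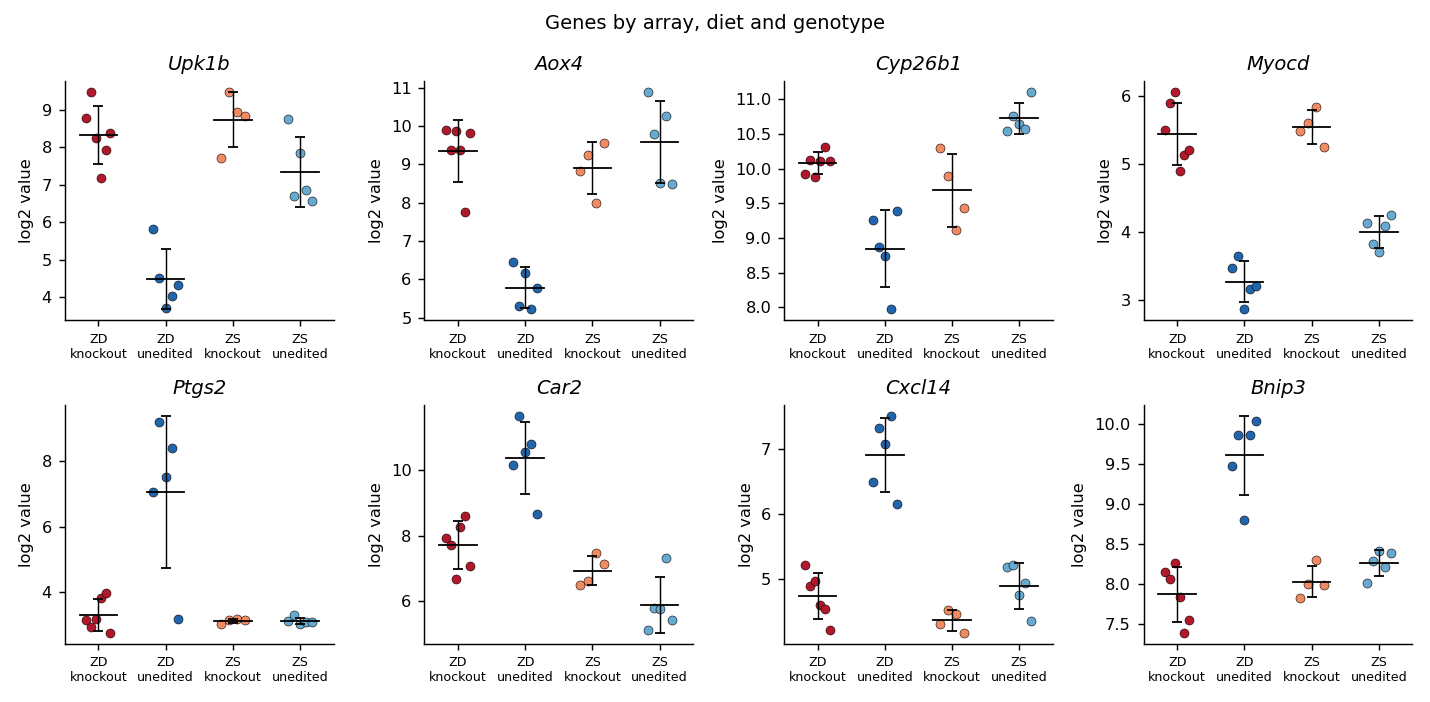
Log2 values of 8 genes on each array of the 4 groups, with the group mean as a line and the SD as bars (n = 6, 5, 4 and 5 arrays in the order of the axis). Ptgs2, Car2, Cxcl14 and Bnip3 are high on unedited ZD arrays, with Ptgs2 at 3.19 on 1 of them, and Upk1b, Aox4, Cyp26b1 and Myocd are lowest there.

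Among 35 cornified envelope and suprabasal genes, which build the outer barrier, 8 fell and 1 rose (25.7%), with a median of -0.01; relative to the shift of all genes, the median was -0.32 with the values as deposited. Dsc1, a desmosomal cadherin of the upper layers, fell by 1.27 (SE 0.18, limma adjusted p = 7.35e-06), Tgm5, a cross-linking transglutaminase, by 1.64, Sprr1b, a small proline-rich envelope precursor, by 2.17, and Cstb, a cysteine protease inhibitor, by 0.35, each without overlap. Krt13 differed by -0.01, at the top of the array's range. Of 21 basal and stress keratin genes 6 rose and 2 fell (38.1%), with a median of 0.09 that was -0.03 relative to all genes with the values as deposited. Col17a1, a collagen of the basal attachment, rose by 0.79 (SE 0.16, limma adjusted p = 0.000273), Itgb1 and Itgb4, integrin chains of basal cells, by 0.58 and 0.50, and Krt15, a basal keratin, by 0.31. Itgb1 and Itgb4 lost their call under median centring (0.23 and 0.33), where Krt15 differed by -0.20.

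Krt6c and Krt17, keratins that wounding induces, were the members that fell. Krt6c was at 9.78, 10.62 and 11.65 (lowest, median and highest) in ZD knockouts and at 13.28, 13.72, 12.35, 13.22 and 10.51 in unedited ZD rats. Unedited array 15 lay inside the knockout range, as it did for Ptgs2, and the difference was -2.01 (SE 0.51, limma adjusted p = 0.00267). Krt17 fell by 1.86 (limma adjusted p = 0.0107), but the difference was -1.23 and did not pass without unedited array 12. Krt14, the keratin of basal cells, differed by -0.18 (limma adjusted p = 0.46). Fosl1, an AP-1 subunit of stressed epithelium, fell by 1.90, with overlap. With the muscle covariates 3 cornified envelope genes fell, Dsc1 and Tgm5 among them. Of the basal and stress keratin genes 2 rose there, Col17a1 (0.70) and Itgb4 (0.74). Itgb1 (0.14), Krt15 (0.22), Krt6c and Krt17 did not pass.

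Of 43 cell cycle genes 2 rose and 41 did not pass (4.65% against 40.8%), with a median of 0.02. Mki67, the proliferation marker, was at 8.15, 8.67 and 10.04 (lowest, median and highest) in ZD knockouts and at 8.81, 9.11, 8.87, 9.77 and 7.30 in unedited ZD rats, with overlapping groups and a difference of 0.06 (SE 0.41). The genes that rose were Mcm3, a replication helicase subunit, by 0.82 and Ccnd1, cyclin D1, by 0.49. Mcm3 differed by 0.50 without unedited array 15, and Ccnd1 lost its call under median centring (0.22) and with the mean of its probe sets (0.27).

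Zinc transporters and metallothioneins fell more often than they rose, 9 against 4 of 25 (52%, median -0.12). Slc39a4, the zinc importer ZIP4, was at 4.73, 4.93 and 5.14 (lowest, median and highest) in ZD knockouts and at 5.63, 5.35, 5.60, 5.37 and 5.54 in unedited ZD rats. It fell by 0.58 without overlap (SE 0.10, limma adjusted p = 7.26e-05) and by 0.76 on the zinc-sufficient diet, but differed by -0.15 and did not pass with the values as deposited. Slc30a7, a zinc transporter of the Golgi, fell by 0.75, Slc30a1, the zinc exporter of the cell surface, by 0.87, Slc39a10, an importer, by 1.00, and Mt1 and Mt2A, the zinc-binding metallothioneins, by 0.77 and 0.80. With the values as deposited Slc30a1 (-0.45) and Mt1 (-0.35) did not pass, and the Mt2A call was lost without unedited array 14. Slc39a8, the importer ZIP8, rose by 1.00 (SE 0.16, limma adjusted p = 2.96e-05) without overlap and Slc39a2, an importer, by 0.90. Slc39a2 fell by 0.73 on the zinc-sufficient diet, and the test of that difference gave 1.64 (limma adjusted p = 0.00599). With the muscle covariates 2 genes of the list rose, Slc39a8 among them, and 1 fell, Mt1.

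Genes of the Nrf2 and xenobiotic response rose in 14 of 35 cases and fell in 3 (48.6%, median 0.14). Cyp1b1 and Cyp1a1, cytochromes that activate carcinogens, rose by 1.25 and 1.86, Aldh1a1, a retinaldehyde dehydrogenase, by 1.20, Gsta3, a glutathione transferase, by 1.19 and Tkt, transketolase, by 0.58. Tkt lost its call under median centring (0.18). The 3 that fell were Slc7a11, the cystine importer, by 1.29 (SE 0.18, limma adjusted p = 6.09e-06), Gclm, a subunit of the enzyme that starts glutathione synthesis, by 0.67, and Cbr1, a carbonyl reductase, by 1.04, each without overlap. Slc7a11 was at 8.07, 8.29 and 8.84 (lowest, median and highest) in ZD knockouts and at 9.79, 9.83, 9.52, 9.73 and 9.17 in unedited ZD rats. With the muscle covariates 7 genes of the list rose and 4 fell, but Cyp1b1 (0.77), Cyp1a1 (1.33), Aldh1a1 (0.34) and Cbr1 (-0.79) did not pass.

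Of 22 smooth muscle genes measured 19 rose and 1 fell (90.9%), with a median of 1.45, and with the muscle covariates, which are built from these lists, the median was -0.06. Cnn1, Myh11, Mylk, Tagln, Synpo2, Actg2, Acta2 and Des, proteins of the contractile apparatus and cytoskeleton, rose by 1.87 to 2.76, and outside the list Myl9, a myosin light chain, rose by 2.74 and Tpm2, a tropomyosin, by 0.96. Of 46 skeletal muscle genes 8 rose and 1 fell (19.6%), with a median of 1.19. The skeletal median was 1.19 although 37 members did not pass, since unedited and knockout arrays overlapped widely. Kcnma1, a potassium channel of smooth muscle, Tacr2, a neurokinin receptor, Aqp4, a water channel, and Ccl11, an eosinophil chemokine, rose by 2.36, 2.40, 2.54 and 3.30 and did not pass with the muscle covariates. Dimmer probe sets of Kcnma1 differed by 0.47, which passed, and 0.11, and those of Aqp4 by 0.35, which passed, and 0.02. Frzb, a secreted Wnt inhibitor, rose by 2.69 (limma adjusted p = 0.0324) and lost its call without any 1 of unedited arrays 11, 12 and 13 or knockout arrays 34, 35 and 36.

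Myocd, the coactivator that drives the smooth muscle programme, kept a rise in the fit with the muscle covariates, although it is a member of the smooth muscle list. It was at 4.89, 5.35 and 6.06 (lowest, median and highest) in ZD knockouts and at 3.46, 3.64, 2.86, 3.16 and 3.20 in unedited ZD rats. The groups did not overlap, and the difference was 2.18 (SE 0.17, limma adjusted p = 7.90e-10), 1.55 with the muscle covariates and 1.54 on the zinc-sufficient diet. Prkaa2, a catalytic subunit of the energy sensor AMPK, Rbms3, an RNA-binding protein, and Fgf12, an intracellular fibroblast growth factor homologue, rose by 2.11, 1.91 and 1.82, and by 1.16, 0.86 and 0.67 with the muscle covariates. Other probe sets of Rbms3 differed by 0.78, which passed, and by 0.17 and 0.14, which did not, and those of Fgf12 by 1.65, which passed, and by 0.05, which did not. Ccn1, a matrix protein induced by YAP, rose by 1.94, and by 2.54 with the covariates.

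Of 39 fibroblast and matrix genes 10 rose and 3 fell (33.3%), with a median of 0.21 that was -0.47 with the muscle covariates, where 1 rose and 10 fell. Eln, elastin, rose by 1.19, Loxl2, a matrix cross-linking oxidase, by 1.04, and Vim, vimentin, by 0.92. For Eln and Loxl2 this was the brighter probe set, and their other probe sets did not pass. The 3 that fell were Lox (-0.97), also a cross-linking oxidase, Thy1 (-0.56) and Thbs2 (-0.53). Loxl2 (0.44) and Vim (0.15) did not pass with the muscle covariates, and Eln did (0.76). Of 24 endothelial genes 5 rose and 6 fell (45.8%, median 0.17), and with the muscle covariates none rose and 5 fell. On the zinc-sufficient diet, where 49.8% of all genes passed, 20 of the 24 rose and 1 fell (median 0.87). For 13 of the 24 the zinc-deficient difference was lower by the test of the difference, which 9.35% of all genes passed in either direction. Pdpn (0.69), Pecam1 (0.63), Nos3 (0.52) and Ramp2 (0.50) rose, and Sele (-0.99), Selp (-0.52) and Plvap (-0.48) fell. Esm1, a marker of sprouting endothelium, was at 3.17, 3.44 and 3.54 (lowest, median and highest) in ZD knockouts and at 4.87, 6.86, 4.39, 5.08 and 4.09 in unedited ZD rats, a fall of 1.65 without overlap (SE 0.28, limma adjusted p = 4.37e-05). Rgs5, a pericyte gene, fell by 0.83 (-0.45 and not past the threshold as deposited), and Flt4, the lymphatic receptor VEGFR3, by 0.38, while Esam, an endothelial adhesion molecule, rose by 0.71 and differed by -0.01 with the muscle covariates. Of 8 erythroid genes 7 fell (87.5%), with a median of -0.40. Hbb, beta globin, fell by 1.14 and Epb42, a red cell membrane protein, by 0.54, of which Hbb did not pass with the muscle covariates (-1.29).
Of 19 adipocyte genes 3 rose and 2 fell (26.3%, median -0.00), and of 16 nerve and Schwann cell genes 3 rose and 6 fell (56.2%, median -0.13).

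Of 34 interferon response genes 6 rose and 4 fell (29.4%, median 0.11). Irf1, an interferon-induced transcription factor, rose by 1.01, but was at 0.36 and not past the threshold with the muscle covariates. Of 34 immediate early genes 3 rose and 5 fell (23.5%, median -0.04). Ccn1 (1.94) and Egr2 (0.72) were among those that rose. Junb, an AP-1 subunit, fell by 0.67 and Fosl1 by 1.90. Of 22 p53 and damage response genes 6 rose and 4 fell (45.5%, median 0.06), with Gadd45g up by 0.93 and Tp53inp1 down by 0.91. Of 43 mitochondrial respiratory chain genes 21 rose and 4 fell (58.1%, median 0.13). Sdha rose by 0.48 and Ndufa8 by 0.42, both without overlap. Of 28 ribosomal protein genes 7 rose and 2 fell (32.1%, median 0.05). Relative to all genes, the medians of the mitochondrial and ribosomal lists were -0.10 and -0.27 with the values as deposited, so their direction depended on the scaling. Median centring moves all genes of an array alike and so gives these same relative medians.

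**Figure D4:**
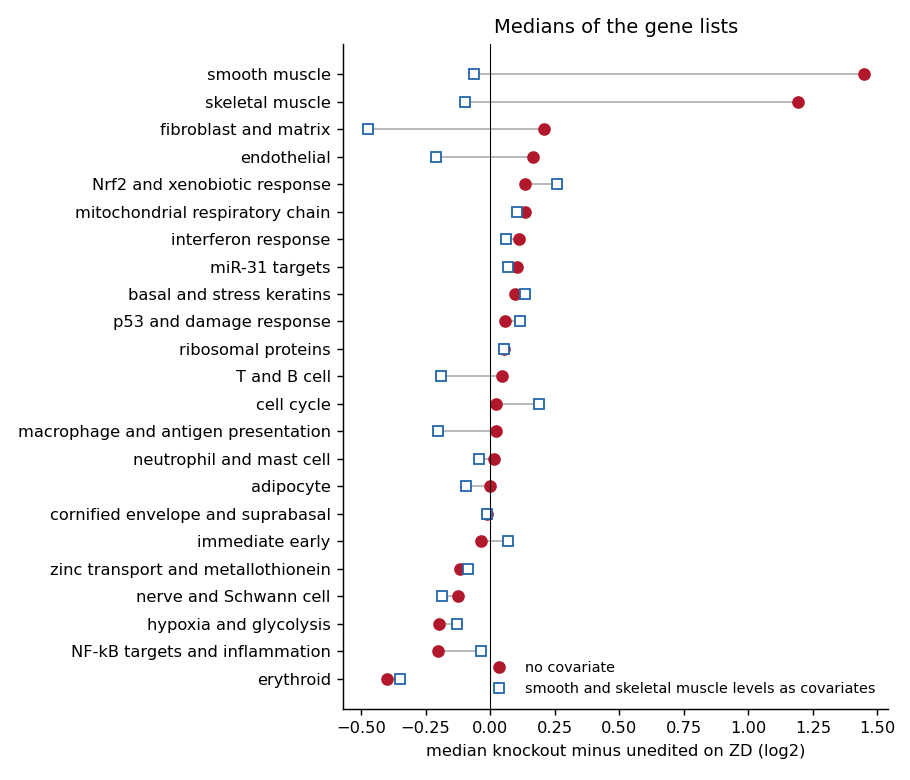
Median difference in log2 value between ZD knockouts and unedited ZD rats for each of 23 gene lists, without covariates (filled circles) and with the smooth and skeletal muscle levels as covariates (open squares). The smooth muscle median was 1.45 without covariates and -0.06 with them, and the fibroblast median 0.21 and -0.47.

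Outside these lists, the largest rise among genes with a descriptive symbol and groups without overlap was that of Upk1b, a uroplakin first known from the bladder lining. It was at 7.18, 8.32 and 9.49 (lowest, median and highest) in ZD knockouts and at 5.81, 4.51, 3.70, 4.04 and 4.32 in unedited ZD rats, 3.87 higher (SE 0.58, limma adjusted p = 1.24e-05), or 14.6-fold, and 2.58 higher with the muscle covariates, where it passed. Aox4, an aldehyde oxidase that in the mouse acts on retinaldehyde, was at 7.76, 9.60 and 9.90 (lowest, median and highest) in ZD knockouts and at 6.45, 5.31, 6.16, 5.22 and 5.78 in unedited ZD rats, 3.57 higher (SE 0.69, limma adjusted p = 0.000206), but did not pass with the covariates (1.60). Neither gene's groups overlapped.

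The largest fall under the same conditions was that of Crisp3, a cysteine-rich secretory protein of glands and white blood cells. It was at 2.45, 2.60 and 2.77 (lowest, median and highest) in ZD knockouts and at 11.54, 11.31, 2.97, 11.16 and 3.38 in unedited ZD rats. The unedited arrays fell into a bright and a dim set, and the call (-5.45, SE 2.16, limma adjusted p = 0.045) was kept only when unedited array 13 or 15 was the one left out, and lost in the other 9 of 11 fits. Car2, a carbonic anhydrase, was at 6.67, 7.82 and 8.59 (lowest, median and highest) in ZD knockouts and at 10.13, 11.64, 10.52, 10.77 and 8.65 in unedited ZD rats, a fall of 2.63 (SE 0.61, limma adjusted p = 0.00117) that did not pass with the covariates (-1.14). The dimmest unedited array of Car2 lay just above the brightest knockout array.

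Cxcl14, a chemokine of epithelia, was at 4.21, 4.74 and 5.22 (lowest, median and highest) in ZD knockouts and at 6.50, 7.32, 7.08, 7.51 and 6.15 in unedited ZD rats. It fell by 2.17 without overlap (SE 0.23, limma adjusted p = 1.20e-07) and by 1.98 with the muscle covariates. Further falls without overlap that held with the covariates were those of Stfa2l2, a stefin, by 2.57, Tubb3, a tubulin, by 2.45 (0.32 on a dim probe set), Dyrk3, a kinase, by 1.94, Rln1, a relaxin, by 1.88, Dnajb3, a co-chaperone, by 1.87, and Cfi, complement factor I, by 1.68. Those of Atp13a5, a transport ATPase, by 2.10, Tmprss11d, an epithelial serine protease, by 1.89, Frem3, a matrix protein, by 1.75, and Scd, a fatty acid desaturase, by 1.69 did not pass with the covariates.

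The same genotypes on the zinc-sufficient diet, on other arrays but with the same difference of experiment, gave 7087 genes past the threshold (49.8%), 3539 higher and 3548 lower. Of the genes that passed on the zinc-deficient diet 69.2% passed on both, which is 56.6% of those on the zinc-sufficient diet: 4013 genes, 3904 in the same direction and 109 in opposite ones. An offset between the experiments that was equal on both diets would enter both differences and cancel in the interaction, the zinc-deficient difference minus the zinc-sufficient one. The interaction passed for 1329 genes (9.35%), 625 positive and 704 negative. Of these 591 had also passed on the zinc-deficient diet, 350 higher and 241 lower in knockouts.
The offset was not shown to be equal. The beta-actin control difference was 1.23 to 2.08 in ZS knockouts and 2.33 to 2.77 in unedited ZS rats, unlike on the zinc-deficient diet, and the hexokinase control difference was 1.42 to 1.59 in ZS knockouts, against -0.18 to 0.52 in ZD knockouts. With the beta-actin difference as a covariate 213 genes passed the interaction test, and without ZS knockout array 32 the count was 737.

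Cyp26b1, which degrades retinoic acid, was at 9.88, 10.12 and 10.32 (lowest, median and highest) in ZD knockouts and at 9.27, 8.87, 8.74, 7.97 and 9.39 in unedited ZD rats, and at 9.11 to 10.30 in ZS knockouts and 10.55 to 11.11 in unedited ZS rats. Neither pair overlapped. It was 1.23 higher on the zinc-deficient and 1.04 lower on the zinc-sufficient diet, an interaction of 2.27 (SE 0.35, limma adjusted p = 0.000485). Aox4 had an interaction of 4.25 (limma adjusted p = 0.011) and Adh6a, an alcohol dehydrogenase, of 3.88 (limma adjusted p = 0.0106). Adh6a was 2.14 higher on the zinc-deficient and 1.74 lower on the zinc-sufficient diet, and its zinc-deficient difference was 0.16 and did not pass with the muscle covariates.

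Car2 had an interaction of -3.67 (limma adjusted p = 0.0125) and Ptgs2 of -3.75 (limma adjusted p = 0.0175). Ptgs2 was at 3.03 to 3.18 in ZS knockouts and 3.04 to 3.30 in unedited ZS rats, low in both. Slfn4, a schlafen of myeloid cells, was 1.26 lower on the zinc-deficient and 1.26 higher on the zinc-sufficient diet (interaction -2.52, limma adjusted p = 0.00538), though the zinc-deficient difference was -0.84 and did not pass with the values as deposited. Egr2, an early growth response transcription factor, was 0.72 higher on the zinc-deficient and 1.23 lower on the zinc-sufficient diet, an interaction of 1.95 (SE 0.23, limma adjusted p = 1.37e-05), without overlap on either diet; a dimmer probe set differed by -0.20 on the zinc-deficient diet and did not pass.
Fxyd4, a regulator of the sodium pump, Cldn10, a claudin, Prr15 and P2rx2, an ATP-gated channel, had interactions of 2.77, 2.36, 2.42 and 2.11. Their zinc-deficient differences of 1.49, 1.47, 1.37 and 0.94 overlapped between groups, and none of them passed with the muscle covariates. Leaving out 1 array ended these calls for Fxyd4 (unedited array 13 or 14, or knockout array 34), Prr15 (unedited array 14, or knockout array 35 or 36), Cldn10 (unedited array 14) and P2rx2 (unedited array 13 or 14, or knockout array 35, 36, 37 or 39).

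**Figure D5:**
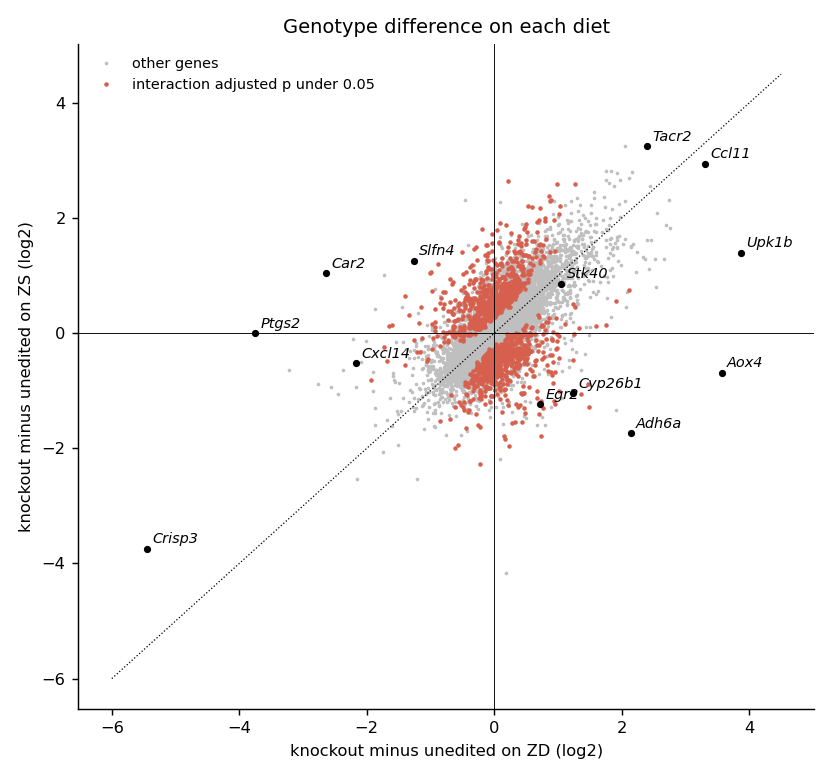
Knockout minus unedited difference in log2 value on the zinc-deficient diet (horizontal) and the zinc-sufficient diet (vertical) for 14217 genes, with the 1329 genes past the interaction threshold in colour and a dotted line of equal differences. Tacr2, Ccl11 and Stk40 lie near the line, Aox4, Adh6a and Cyp26b1 are higher on the zinc-deficient diet and lower on the zinc-sufficient one, and Ptgs2 is at -3.75 and -0.00.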

How the data were processed

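RNA from frozen, pulverized oesophageal epithelium was measured on Affymetrix rat arrays. The authors deposited a log2 value for each probe set, made with Affymetrix Expression Console and RMA, per the submitters' processing notes; their versions are not given in the sources used here. For this comparison the 31099 probe sets on 30 arrays were quantile normalized again jointly. Platform annotation gave 1 symbol for 20826 probe sets, several for 436 and none for 9780, and 57 were controls; 20758 matched RefSeq by gene ID. The probe set with the highest mean over all arrays stood for each of 14217 genes (4525 had several). limma 3.58.1 in R 4.3.3 was fitted to all arrays with 1 coefficient per group, and p was adjusted by Benjamini-Hochberg within each contrast at a threshold of 0.05. Probe sets with several symbols or none entered no gene result.

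The 23 gene lists and the genes in them were chosen with earlier results of these data known. Genes were named by a rule on size of difference, overlap, interaction and list membership that yielded 131 genes. Of these 101 are described. The other 30, all members of gene lists, were left out of the named genes after their values were seen, and 28 of them had passed. Cd5, Cd8b and Thbs2 are among the 30 and are given in brief. Abcb9, Itga5, Cdkn1b, Wasf3, Lyz2, RT1-DMa, Lox and Thy1 are also given in brief, chosen after their values were seen. The same holds for Cd8a, Cd4, Pdpn, Pecam1, Nos3, Ramp2, Selp and Plvap. Genes given in brief enter no count of named genes or of distant arrays below. Chosen after their values were seen were Il1b, Ccl2, Cxcl2, Mmp9, Adm, Hk2, Vegfa, Slc16a3, Slc30a1, Slc39a10, Slc39a2, Mt2A, Itgb4, Fosl1, Rasa1, Kank1, Tns1, Lats2, Sele, Ppp6c, Cyp1a1, Aldh1a1, Gsta3, Cbr1 and Acta1; the neighbours of the miR-31 locus were chosen by position. The labels call the samples separate rats, so p-values measure the spread between rats of 1 experiment each. Alternatives were the values as deposited, median centring, quantile normalization over the 20 arrays compared, leaving out the dimmest 30% of genes, trend and robust fitting, array weights, the compared groups alone, the mean of probe sets, all probe sets, muscle levels as covariates, leaving out each array, and the beta-actin control difference. The fit was tested on simulated data. A search for miR-31 seed sites was not run, since no transcript sequence was used here.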

Additional observations from a re-analysis of the deposited data

Results flagged for a closer look

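With groups of 5 and 6 arrays, 1 array lay far from the rest of its group in 22 of 268 group and gene combinations, and chance alone gives about 1 in 20. Knockout array 38 was the distant one for Aox4 (7.76, against 9.38 to 9.90 on the other knockout arrays), Dyrk3 (5.67, against 4.97 to 5.18), Mcm3 (8.33, against 7.47 to 7.78), Slc7a11 (8.84, against 8.07 to 8.33), Slc39a2 (5.92, against 6.94 to 7.49) and Dmrta1 (3.26, against 3.33 to 3.34). Array 39 was distant for Ccn1 (5.68), Cd163 (4.92) and Krt13 (14.11), array 34 for Col17a1 (10.46) and Slc39a10 (10.18), array 36 for Loxl2 (5.39) and array 35 for Mmp9 (3.38).

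Among the unedited zinc-deficient rats, array 12 was distant for Dnajb3 (6.69), Vegfa (9.21), Slc16a3 (6.84) and Cdkn2a (5.75), array 14 for Slc39a2 (6.66) and Focad (8.00), array 11 for Jazf1 (3.90) and array 15 for Rela (8.31) and Vim (10.67). Of the RNA controls, the beta-actin difference of knockout array 35 was 4.34 and its Gapdh difference 1.29, while unedited array 12 had a beta-actin difference of 2.55 and unedited array 13 a Gapdh difference of 0.36.

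For 34 of the 134 named genes the genotype difference differed between the diets by the limma interaction test, which 9.35% of all genes passed. Of these, 10 were named because their interaction passed and was large, so their passing was set by the rule. Given as the zinc-deficient minus the zinc-sufficient difference, it was above 0 for Aox4 (4.25), Adh6a (3.88), Fxyd4 (2.77), Prr15 (2.42), Cldn10 (2.36), Cyp26b1 (2.27), P2rx2 (2.11), Egr2 (1.95), Slc39a2 (1.64), Prkaa2 (1.36), Rbms3 (1.35), Kank1 (0.61), Ppp6c (0.61) and Bap1 (0.37). It was below 0 for the mediators and vessel genes Ptgs2 (-3.75), Sele (-2.04), Esm1 (-1.78), Adm (-1.65), Cxcl14 (-1.65), Rgs5 (-1.45), Il1b (-1.38), Vegfa (-1.04) and Esam (-0.84). It was also below 0 for Car2 (-3.67), Slfn4 (-2.52), Hbb (-1.60), Bnip3 (-1.50), RT1-Da (-1.26), Cfi (-1.21), Dyrk3 (-1.12), Laptm5 (-1.08), Hif1a (-0.76), Ndufa8 (-0.43) and Sdha (-0.30). The control probe sets differed between the knockout groups of the 2 diets, and their part in these values was not tested. Over all genes, 1329 interactions passed without and 213 with the beta-actin difference as a covariate.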

How the results depend on the processing

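The count on the zinc-deficient diet was 2255 with the smooth muscle level as a covariate, 2158 with both muscle levels and 12665 over all probe sets, a larger table. All probe sets gave 14161 on the zinc-sufficient diet and 2139 interactions, and the beta-actin covariate left 213 interactions; its cause was not tested. Leaving out each array gave 5066 to 5682 genes on the zinc-deficient diet, 5810 to 6818 on the zinc-sufficient diet and 737 to 1704 interactions.

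Of 129 named genes that passed, 119 kept call and direction with the values as deposited, 119 with median centring, 124 with the mean of probe sets, 55 with both muscle levels and 115 in every fit with 1 array left out. The direction turned with the smooth muscle level and with both levels for Frzb (-1.24 and -1.08), Kcnma1 (-0.54 and -0.44), Prr15 (-0.051 and -0.053), S100a8 (0.66 and 0.44), Tpm2 (-0.030 and -0.028) and Esam (-0.015 and -0.0088), with both levels alone for Des (-0.042), as deposited for Tnf (0.042), under median centring for Krt15 (-0.20) and with the mean of probe sets for RT1-Bb (-1.07). Fitted to the compared groups alone, Mcm3, Krt17 and Mmp9 did not pass. The values for Tnf and Krt15 are not relative to the median of all genes, which was 0.26 as deposited and -0.17 under median centring. No cause of these turns was tested. No paired analysis was possible because each sample number belongs to 1 rat. With 4 to 6 arrays a group, small differences may go unseen.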
